A study of Mus musculus with 12 samples.

Results

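The comparison set the 5 replicate columns of a 1000 ng background against the 5 of a 100 ng background, after reads of chosen transcripts taken from an 80M-read NuGENv2 library (M, 1e6 reads) had been added to both. These were 2 of the 12 samples of the series, and 10 of its 60 replicate columns. Members were taken by their labels: the NuGENv2 table of the greatest source depth, its 1000 ng columns and its 100 ng columns. Every sample was a mixture of reads made on a computer, and both backgrounds came from TruSeq libraries, an unstranded protocol that selects poly(A) RNA. One background was prepared from 1000 ng and the other from 100 ng of total RNA of D1, a mouse cell line known as a line of dendritic cells. The NuGENv2 kit, which amplifies cDNA from small inputs, was given 2 ng of total RNA. Both backgrounds also held synthetic reads of even coverage for other chosen transcripts, split by the labels into a complex and an endogenous list, named for the isoforms that surround them. No treatment is named. The backgrounds differ in their RNA input and in the transcripts added to them.

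Alternative splicing lets 1 gene give several transcripts that differ in exons, in their first or last exon, or in whether an intron is kept. Such transcripts share most of their sequence, so they are told apart by the few stretches that are not shared. Counting reads over exon bins, the non-overlapping pieces into which the exons of all transcripts of a gene are cut, is one way to see this. A retained intron shows as reads over a piece that starts with the GT of a 5′ splice site and, where it is whole, ends with the AG of a 3′ splice site.

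The table held 925 usable exon bins of 58 gene models. Of these models, 21 had a transcript listed for NuGENv2 reads: 12 for the 100 ng background only, 5 for the 1000 ng background only and 4 for both. A further 33 had a transcript in a synthetic list, and 4 were in no list. Levels are given as FPKM equivalents: reads per kilobase of bin, divided by a size factor that brings the columns to one level. The bins of a replicate held 371374 to 581981 reads with 1000 ng of input, against 261065 to 440820 with 100 ng. The labels do not say whether the 5 replicates were separate cultures, so p-values measure only the spread between these columns, which may be technical. The NuGENv2 reads gained with rising source depth were the same number in each replicate of a background. Before scaling, those reads thus add no spread between replicates, and the p-values do not measure how they would vary. With 58 gene models in the table, markers of the cell line could not be checked.

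Several results below turn on the places where coding sequence runs into an intron, so these are shown first. Each line gives the last bases of a coding bin and the first bases of the next bin, 5′ to 3′ on the plus strand of NCBIM37 (mm9), with the first 2 bases of the second bin in capitals. In all 4 the second bin starts with GT and belongs to a transcript annotated as retaining an intron in GENCODE vM1.
Copa E005 into E006, chr1:174021357-174021384: tagaacctgtgtctgGTaaaccaagagg
Copa E007 into E008, chr1:174022471-174022498: tttgggatatttctgGTgagctacccaa
Il18rap E006 into E007, chr1:40582218-40582245: atgacctggtacaagGTatggatggatt
Dvl3 E002 into E003, chr16:20522384-20522411: cgggtggtgtcctggGTaaggagcctgc

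Coding bins that differed between the backgrounds were also read from the genome. The examples below are whole bins of Mgl2 and Il18rap, higher in the 100 ng background, and of Dvl3, higher in the 1000 ng background.
Mgl2 E010, chr11:69950172-69950278, plus strand: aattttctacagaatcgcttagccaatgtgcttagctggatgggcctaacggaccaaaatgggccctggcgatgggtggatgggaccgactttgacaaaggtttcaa
Il18rap E006, chr1:40582049-40582232, plus strand: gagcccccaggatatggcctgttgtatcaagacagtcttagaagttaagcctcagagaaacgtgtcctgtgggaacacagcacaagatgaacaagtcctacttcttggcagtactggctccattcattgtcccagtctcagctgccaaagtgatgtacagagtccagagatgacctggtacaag
Dvl3 E018, chr16:20530850-20531065, plus strand: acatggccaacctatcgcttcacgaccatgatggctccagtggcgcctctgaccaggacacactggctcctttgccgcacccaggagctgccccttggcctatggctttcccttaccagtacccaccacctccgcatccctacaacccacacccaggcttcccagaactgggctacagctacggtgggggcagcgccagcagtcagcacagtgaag

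The first comparison asked which gene models differed in their summed level. Myadm, a membrane protein of myeloid cells, was higher in the 1000 ng background. Mgl2, a galactose-binding lectin of macrophages and dendritic cells, and Sirpa, an inhibitory receptor that binds CD47, were higher in the 100 ng background. Ppp2r3a, a regulatory subunit of the phosphatase PP2A, was also higher in the 100 ng background. The replicates of 12 models (20.7%) did not overlap between the backgrounds. Limma, which fits a linear model to each feature and pools the spread over all, called 14 of 58 models (24.1%), 3 higher in the 1000 ng background (5.17%) and 11 higher in the 100 ng background (19%), at a Benjamini-Hochberg adjusted p under 0.05. Of the 14, 12 had a transcript listed for NuGENv2 reads. Among the 12 models listed for the 100 ng background only, 9 were called, all higher there. Among the 5 listed for the 1000 ng background only, Saal1 was called, and was higher there. Reads of the listed transcripts had been added to these backgrounds, so the directions were largely fixed in advance.

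Myadm (chr7:3289039-3299346, plus strand) measured 239, 176, 251, 236 and 273 FPKM equivalents in the 5 replicates of the 1000 ng background, against 67.8, 63.3, 81.0, 72.2 and 63.1 in the 100 ng background. All 1000 ng replicates were above all 100 ng replicates. The log2 fold change, 1000 ng minus 100 ng, was 1.73 (SE 0.12, limma adjusted p = 8.17e-06). The transcript of Myadm is listed for both backgrounds. From the 40M to the 80M table, however, the model gained 7130 reads per replicate in the 1000 ng background against 0 in the 100 ng background.

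Mgl2 (chr11:69943831-69951052, plus strand) measured 539, 589, 488, 535 and 491 in the 1000 ng background against 948, 959, 828, 805 and 959 in the 100 ng background (log2 fold change -0.77, SE 0.08, limma adjusted p = 7.16e-05). Sirpa (chr2:129418571-129457964, plus strand) measured 69.1, 77.7, 65.9, 68.3 and 66.4 against 111.9, 112.8, 101.7, 99.0 and 108.7 (log2 fold change -0.61, SE 0.06, limma adjusted p = 7.16e-05). Neither model overlapped between the backgrounds. Ppp2r3a was far lower, at 1.603, 1.81, 1.55, 1.84 and 1.67 against 5.38, 5.42, 3.41, 3.61 and 5.24. Its log2 fold change was -1.04 (SE 0.12, limma adjusted p = 0.000161). Its 100 ng replicates fell into a higher set (1, 2 and 5) and a lower pair (3 and 4), and even the lower pair was above every 1000 ng replicate. The size factors of the pair, 1.42 and 1.23, were above those of the other 100 ng replicates, 0.663 to 0.721. Their part in the split was not tested. The split was not particular to Ppp2r3a: replicates 3 and 4 were also the lowest of the 100 ng background in bins given below, Mgl2 E012 and E013, Birc3 E001 and Il18rap E007. In the totals of Il18rap and Rhbdd3 they were the highest.

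The other models listed for the 100 ng background and called there were lower in level. Fbf1, a centriole and cilium protein, measured 2.70 ± 0.26 in the 1000 ng background against 3.95 ± 0.15 in the 100 ng background (SD, n = 5). Pla2g15, a lysosomal phospholipase, measured 7.02 ± 0.84 against 10.3 ± 0.31, and Birc3, a ubiquitin ligase of the NF-kB pathway, 5.00 ± 0.31 against 6.98 ± 0.60. Kcnn4, a calcium-activated potassium channel, measured 13.6 ± 1.06 against 16.96 ± 0.35. The model of uc012hbj.1, which has no gene symbol in the table, measured 3.52 ± 0.49 against 6.63 ± 0.87. Limma adjusted p-values of these 5 ran from 0.000389 to 0.00245, and the replicates of the backgrounds did not overlap in any of them. In the opposite direction, Saal1, a serum amyloid A-like protein, measured 5.28 ± 0.24 against 3.92 ± 0.34 (log2 fold change 0.35, SE 0.06, limma adjusted p = 0.0012), again without overlap.

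**Figure D1:**
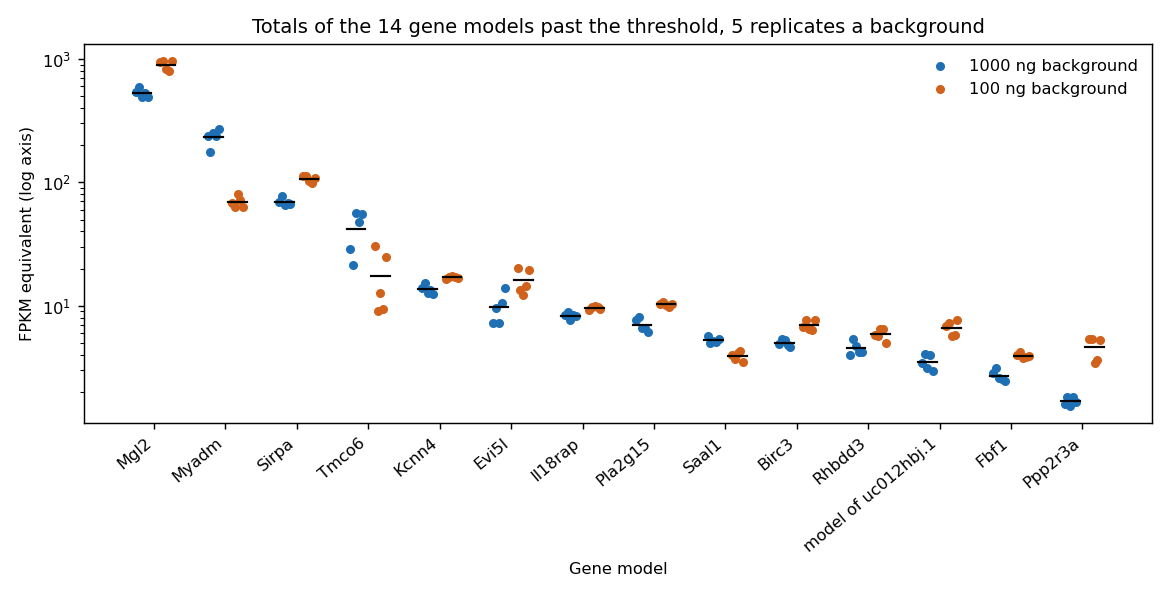
Level of each of the 14 called gene models in FPKM equivalents (log axis) in the 5 replicates of the 1000 ng background (blue) and of the 100 ng background (orange), with lines at the means. Myadm, Tmco6 and Saal1 lie higher in the 1000 ng background and the other 11 in the 100 ng background, with overlap in Rhbdd3, Evi5l and Tmco6.

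The remaining 4 calls were lost when single replicates were left out. Il18rap, the accessory chain of the interleukin-18 receptor, measured 8.33 ± 0.44 against 9.62 ± 0.35 (log2 fold change -0.19, SE 0.05, limma adjusted p = 0.0225). The call was lost when 1000 ng replicate 3, 4 or 5 or 100 ng replicate 2 or 4 was left out, with limma adjusted p from 0.0513 to 0.0561. Rhbdd3, a rhomboid-family protein, measured 4.52 ± 0.56 against 5.88 ± 0.63 with overlapping replicates (limma adjusted p = 0.0281). It kept its call only without 1000 ng replicate 2 or without 100 ng replicate 5 among the 10 replicates left out in turn, with limma adjusted p from 0.051 to 0.071 otherwise.

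The other calls of this kind were in models without NuGENv2 reads. Evi5l, a TBC-domain protein in the synthetic list with the endogenous background for both inputs, measured 9.73 ± 2.75 against 16.03 ± 3.73 (log2 fold change -0.68, SE 0.20, limma adjusted p = 0.0361). A different transcript of Evi5l is listed for each input. Of the 10 replicates left out in turn, it kept its call only without 1000 ng replicate 5 or 100 ng replicate 3, with limma adjusted p from 0.052 to 0.0871 otherwise. Tmco6, in the complex synthetic list for the 1000 ng background, measured 42.0 ± 15.8 against 17.4 ± 9.83 (log2 fold change 1.30, SE 0.41, limma adjusted p = 0.0435). It kept its call without 1000 ng replicate 2 or 100 ng replicate 1 or 5, with limma adjusted p from 0.0544 to 0.109 without each of the others. The replicates of both models overlapped between backgrounds.

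The calls of most models depended on how the columns were brought to one level. With size factors from total reads in bins, 3 of the 14 totals remained called: Myadm, Ppp2r3a and Tmco6. Mgl2 then had a limma adjusted p of 0.0901 at a log2 fold change of -0.75, and Sirpa 0.207 at -0.60. After quantile normalization 7 remained: these 3, Pla2g15, Saal1, Evi5l and the model of uc012hbj.1. Mgl2, Sirpa, Fbf1, Birc3, Kcnn4, Il18rap and Rhbdd3 were lost under both. After quantile normalization their limma adjusted p ran from 0.0652 (Kcnn4) to 0.898 (Rhbdd3). Under both, all 7 stayed higher in the 100 ng background. Quantile normalization also brought the change of Birc3 from -0.41 to -0.11, that of Fbf1 from -0.42 to -0.19 and that of Ppp2r3a from -1.04 to -0.59. Without column scaling, after bringing the fifth 100 ng column to the unit of the others, the median log2 fold change over all bins was 0.33 and limma called 4 models. Of the 14 models, Myadm and Tmco6 were among these 4. Kcnn4 and Il18rap then changed sign, to 0.04 and 0.14, values below that median.

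The 9 models listed for NuGENv2 reads that did not pass had log2 fold changes of totals from -0.15 to 0.24. Gmfg, a regulator of branched actin, was the highest of these at 0.24 and Dhps, an enzyme of hypusine synthesis, the lowest. Dhps measured 11.4 ± 0.51 in the 1000 ng background against 12.7 ± 0.64 in the 100 ng background (limma adjusted p = 0.059). It passed when 1000 ng replicate 2 or 100 ng replicate 5 was left out, at limma adjusted p of 0.0492 and 0.0276. Fxyd5, a regulator of the sodium pump, gained reads in both backgrounds and measured 306 ± 14.4 against 320 ± 30.2 (limma adjusted p = 0.635). Aes, Copa, Cyth4, Elp2, Nono and Ccnh also stayed short of the threshold, which Copa passed when 100 ng replicate 3 was left out (limma adjusted p = 0.0282). Of the synthetic and unlisted models that did not pass, the largest differences were those of Tmem62 (-2.14), Slc25a35 (-1.42) and 2810002N01Rik (1.204), with limma adjusted p of 0.102, 0.132 and 0.184. In Tmem62, 1000 ng replicate 2 stood at 7.16 while the other 1000 ng replicates lay between 131 and 197, and without it the model passed (log2 fold change -1.26, limma adjusted p = 0.0266). Slc25a35 passed without 100 ng replicate 1 (limma adjusted p = 0.0434). 2810002N01Rik passed under other scalings, at a limma adjusted p of 0.00874 after quantile normalization, 0.0281 without column scaling and 0.048 with size factors from total reads. Over models, the median coefficient of variation in the 1000 ng background was 33.7% in the synthetic lists and 7.31% in the NuGENv2 list, and in the 100 ng background it was 27.3% and 8.57%.

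The second comparison asked which exon bins differed. Limma called 109 of 924 bins tested (11.8%), 46 higher in the 1000 ng background (4.98%) and 63 higher in the 100 ng background (6.82%). Replicates of the backgrounds did not overlap in 115 bins (12.4%), of which 91 were called. Called bins lay in 30 of the 58 models, 19 listed for NuGENv2 reads and 11 not. Models listed for NuGENv2 reads held 71 called bins of 322 (22%), and the others 38 of 602 (6.31%). Every call in a model listed for 1 background was in that direction: 17 of 93 bins in models with NuGENv2 reads for the 1000 ng background against 45 of 169 in those for the 100 ng background. The same held for the synthetic lists, with 12 of 204 bins for the 1000 ng background against 8 of 172 for the 100 ng background. As reads of the listed transcripts were added to the background they are listed for, this match of direction was largely fixed in advance. Models listed for both gave calls in both directions, 4 and 5 of 60 bins with NuGENv2 reads and 12 and 5 of 161 bins with synthetic reads, giving those higher in the 1000 ng background first. In the 33 models of the synthetic lists, the synthetic reads and the RNA input changed together, and their parts cannot be told apart. In most models listed for NuGENv2 reads, the added reads likewise changed together with the RNA input. Their parts in these calls cannot be told apart either. The 4 models in no list had 1 of 65 bins called (1.54%), E022 of Parg. Without column scaling the split was 38 against 8, and with size factors from total reads in bins it was 22 against 16.

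**Figure D2:**
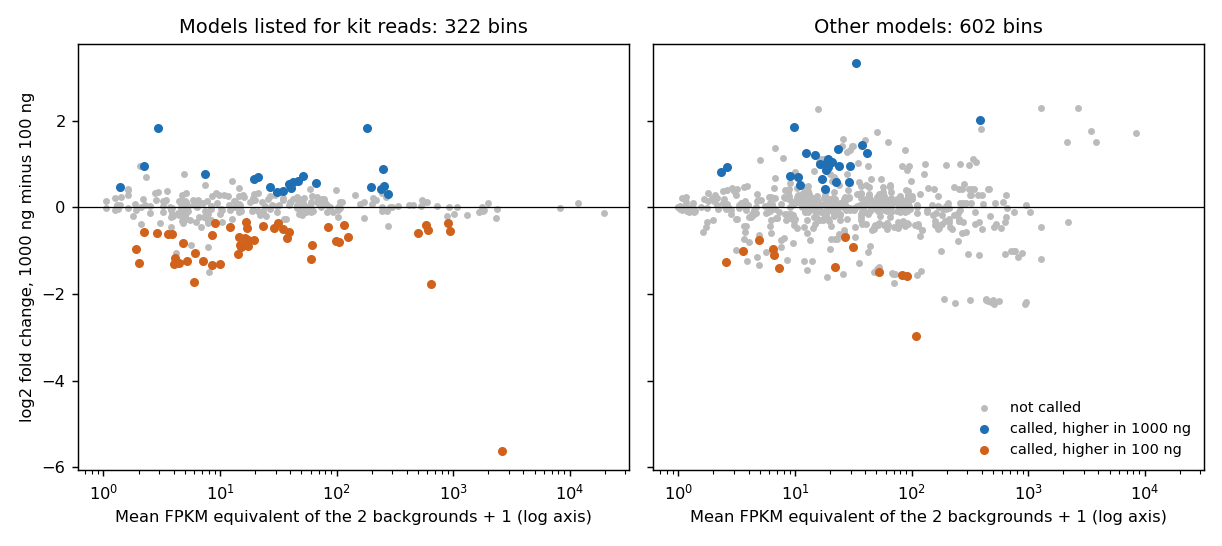
Log2 fold change of each exon bin, 1000 ng minus 100 ng, against its mean level in FPKM equivalents plus 1 (log axis), for the 322 bins of models listed for NuGENv2 reads (left) and the 602 others (right). Called bins are blue where higher in the 1000 ng background and orange where higher in the 100 ng background, and grey points were not called.

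The 20 called bins with the largest change and no overlap between replicates came from 13 models, 15 higher in the 100 ng background against 5 in the 1000 ng background. The largest was Mgl2 E013, at -5.62 (SE 0.26, limma adjusted p = 2.28e-06), a bin of length 5 in which few reads give a high level per kilobase. Its 100 ng replicates measured 5982, 6465, 3149, 3595 and 6375 FPKM equivalents and its 1000 ng replicates 131, 102, 67.6, 121 and 84.2. The bin before it, Mgl2 E012, is longer and held more reads. It measured 1097, 1162, 774, 795 and 1150 in the 100 ng background against 290, 324, 263, 287 and 266 in the 1000 ng background (log2 fold change -1.78, SE 0.14, limma adjusted p = 8.09e-05). E012 took 63.1% of the reads that Mgl2 gained from the 40M to the 80M table, on 36.7% of the length of the model. The bins of the middle of the model, E003 to E007, lay between -0.20 and 0.01 and were not called. Nearer the 5′ end, E002 was called at -0.40 and gained 226 reads in the 100 ng background from the 40M to the 80M table. The exons E008 to E011, of which E010 is printed above, had log2 fold changes from -0.36 to -0.59.

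A single terminal bin also took most of the gained reads in other models. Myadm E007 measured 293, 212, 307, 287 and 334 in the 1000 ng background against 77.2, 71.3, 91.1, 81.5 and 71.0 in the 100 ng background (log2 fold change 1.85, SE 0.13, limma adjusted p = 5.59e-05). It took 95.5% of the reads gained by the model, on 77% of its length. Sirpa E011, the last bin of the model, took 81.2% of its gained reads on 54.4% of its length and measured 75.4 ± 5.19 against 132 ± 9.94. Sirpa E002 changed by more, at -1.18, but from a level of 1.49 ± 0.35 against 4.69 ± 1.19. The first bin by coordinate of the model of uc012hbj.1 took 89.6% of its gained reads and was its only called bin.

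Birc3 lies on the minus strand, so its bin E001 is at the 3′ end. It measured 3.57, 3.56, 3.64, 4.39 and 3.78 in the 1000 ng background against 12.8, 13.5, 7.46, 9.51 and 13.03 in the 100 ng background. The change of E001 was -1.33 (SE 0.16, limma adjusted p = 0.000741), and that of the coding bin E003 was -0.86. The bins E005 to E010 had values from 0.13 to 0.33 and did not pass. Birc3 E011 was the 1 called bin among those of NuGENv2-listed models that gained no read with source depth, with a change of -0.62 and a limma adjusted p of 0.0483.

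Pla2g15 was the model in which every bin was called: all 8 were higher in the 100 ng background, from -0.35 to -1.08. In Kcnn4, 6 of 11 bins were called, E004 to E009, from -0.36 to -0.70. In Fbf1, 4 of 37 bins were called, 3 of them with changes from -1.25 to -1.31 at levels between 1.58 and 4.78 in the 1000 ng background (E026, E029 and E036). E026 and E029 averaged only 8.6 and 6.6 reads a replicate in the 1000 ng background, against 18.4 and 13.8 in the 100 ng background. Rhbdd3 had E013 called alone, at -1.23, and Nono E001 and E003, at -1.18 and -0.68. Nono, an RNA-binding protein of paraspeckles, thus differed in these bins and not in its total.

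The third comparison asked whether bins of 1 model differed by unequal amounts, the pattern a change of isoform leaves. The diffSplice test called 23 of 58 models (39.7%), 16 of them listed for NuGENv2 reads. It called both models that passed on their total and models that did not, among the latter Copa, Cyth4, Nono, Dhps, Aes and Fxyd5. Saal1, Rhbdd3, Evi5l and Tmco6 passed on their totals and not on bin usage. The diffSplice test treats the bins of a model as independent of each other, although they come from the same replicate columns. Its p-values may therefore be too small, and the number of models called too large. How far this holds was not tested.

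Copa, the alpha subunit of the COPI coat of transport vesicles, divided into a called and an uncalled stretch. Its 39 bins run along the plus strand of chromosome 1, and those that gained NuGENv2 reads were E001 to E009, in the 1000 ng background alone. Bins E002 to E008 were called, all higher in the 1000 ng background, with log2 fold changes from 0.38 to 1.83. The bins from E009 on ranged from -0.09 to 0.28 and none was called. The total of Copa measured 23.9 ± 0.99 against 21.0 ± 2.11 (limma adjusted p = 0.0834), while bin usage passed at a diffSplice adjusted p of 3.86e-30. That p-value treats the 39 bins as independent, although they share the same replicate columns, so its size is not a measure of replication.

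Among the called Copa bins, E006 and E008 are the intron pieces whose starts are printed above. E006 (chr1:174021372-174022375) lies between coding bins, starts with GT and ends with AG. It measured 2.03, 1.48, 2.06, 1.80 and 2.24 in the 1000 ng background against 0.693, 0.314, 0.4998, 0.849 and 0.248 in the 100 ng background (log2 fold change 0.95, SE 0.13, limma adjusted p = 0.0015). E008 (chr1:174022486-174023691) starts with GT after the coding bin E007. It measured 3.67, 2.23, 4.17, 3.63 and 4.11 against 0.385, 0.157, 0.392, 0.339 and 0.103 (log2 fold change 1.83, SE 0.14, limma adjusted p = 8.09e-05). In neither bin did the backgrounds overlap. Their levels remained far under those of the coding bins around them: E005 measured 63.0 ± 3.04 against 38.6 ± 9.16, and E007 49.1 ± 1.67 against 33.1 ± 8.16.

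Il18rap showed a division of the same form in the opposite direction. Its bins E001 to E007 gained reads, in the 100 ng background alone, and E003 to E007 were called, from -0.47 to -0.97. Bins E008 to E015 lay between 0.01 and 0.36 and none was called. E007 (chr1:40582233-40583762) runs on from the coding bin E006 with the GT printed above. It measured 1.74, 1.81, 0.984, 1.11 and 2.00 in the 100 ng background against 0.252, 0.290, 0.249, 0.222 and 0.367 in the 1000 ng background, without overlap. Its log2 fold change was -0.97 (SE 0.13, limma adjusted p = 0.00123), and it took 28.5% of the reads gained by the model.

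**Figure D3:**
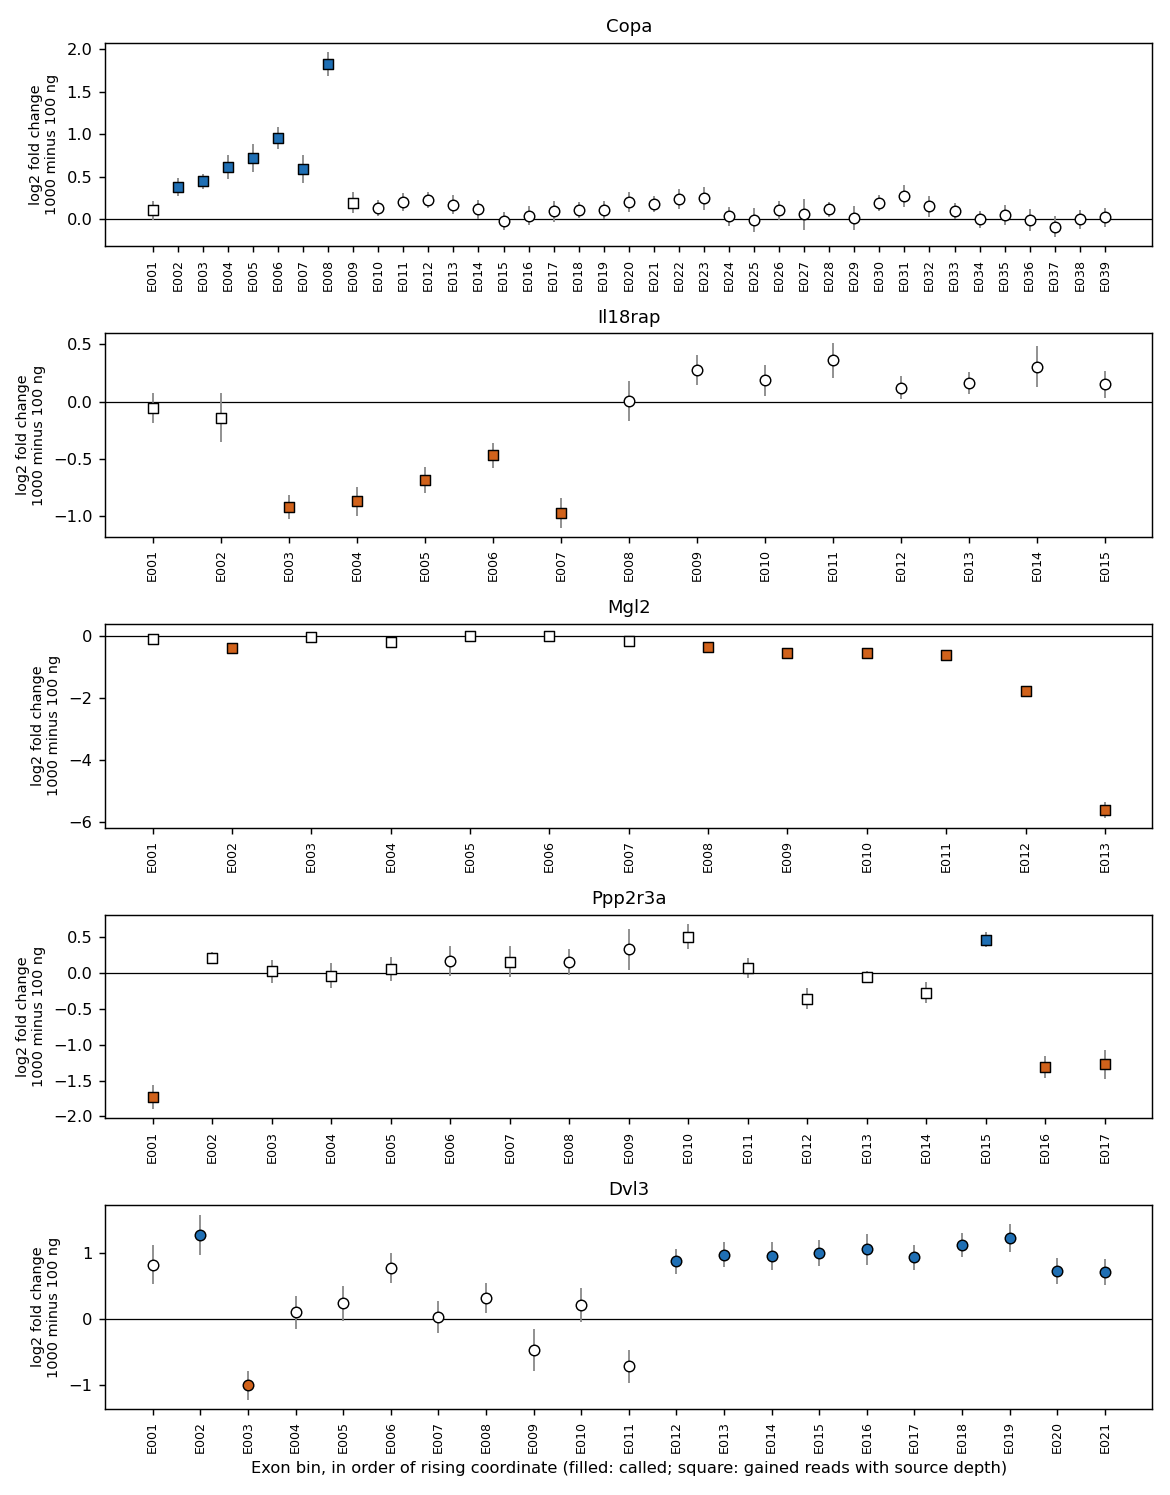
Log2 fold change of every bin, 1000 ng minus 100 ng, in order of rising coordinate for 5 models, with bars of 1 SE. Filled points were called (blue higher in the 1000 ng background, orange in the 100 ng background), and squares mark bins that gained reads with source depth. In Copa and Il18rap the called bins sit together at the 5′ side among the squares, and Dvl3 has called bins but no squares.

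Ppp2r3a and Dvl3 were the models with bins called in both directions. The model of Ppp2r3a is on the minus strand (chr9:101007322-101154162) and its transcripts are listed for both backgrounds, a different one for each. Bin E001, at the 3′ end, measured 9.44, 9.96, 5.81, 6.31 and 9.93 in the 100 ng background against 1.54, 2.01, 1.42, 2.10 and 1.70 in the 1000 ng background (log2 fold change -1.73, SE 0.16, limma adjusted p = 0.00026). E016 and E017, at the 5′ end, changed by -1.31 and -1.27 in the same direction. E015 (chr9:101100961-101101403) went the opposite way, from 0.156 ± 0.109 in the 100 ng background to 0.595 ± 0.169 in the 1000 ng background (log2 fold change 0.46, SE 0.10, limma adjusted p = 0.0189). That bin averaged 4.3 reads a replicate. Its call was lost when 1000 ng replicate 3 was left out, at a limma adjusted p of 0.0539. In all, 9 of 24 alternative settings lost the call of E015. Among them were size factors from total reads, quantile normalization and no column scaling (limma adjusted p = 0.137, 0.165 and 0.164). From the 40M to the 80M table the model gained 40 reads in the 1000 ng background against 303 in the 100 ng background.

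Dvl3, a dishevelled protein that passes on Wnt signals, is in the synthetic list with the endogenous background for both inputs and gained no reads with NuGENv2 depth. The transcripts of Dvl3 listed for the 1000 ng background are not the one listed for the 100 ng background. Of its 21 bins, 11 were called and higher with 1000 ng: E002 and all of E012 to E021, from 0.71 to 1.27. E018, printed above, measured 24.5, 16.8, 35.2, 21.9 and 27.8 in the 1000 ng background against 9.98, 10.6, 11.52, 9.18 and 13.03 in the 100 ng background, without overlap. Its log2 fold change was 1.12 (SE 0.18, limma adjusted p = 0.00379), and that of the next bin, E019, was 1.22. E002 had the largest change, 1.27, but its replicates overlapped. The call of E002 was lost when 1000 ng replicate 4 or 5 or 100 ng replicate 3, 4 or 5 was left out, with limma adjusted p from 0.0511 to 0.0573.

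Dvl3 E003 (chr16:20522399-20523482) was higher in the 100 ng background. It is an intron piece between coding bins that starts with GT and ends with AG. It measured 5.57, 5.00, 2.42, 3.33 and 2.93 in the 100 ng background against 1.81, 0.718, 1.91, 1.36 and 1.12 in the 1000 ng background (log2 fold change -1.01, SE 0.22, limma adjusted p = 0.0162). All 100 ng replicates were above all 1000 ng replicates. The call was lost without column scaling (limma adjusted p = 0.0846) and with size factors from total reads (limma adjusted p = 0.0518), and held without each of the 10 replicates in turn. The coding bin before it, E002, stood higher in the 1000 ng background by 1.27.

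**Figure D4:**
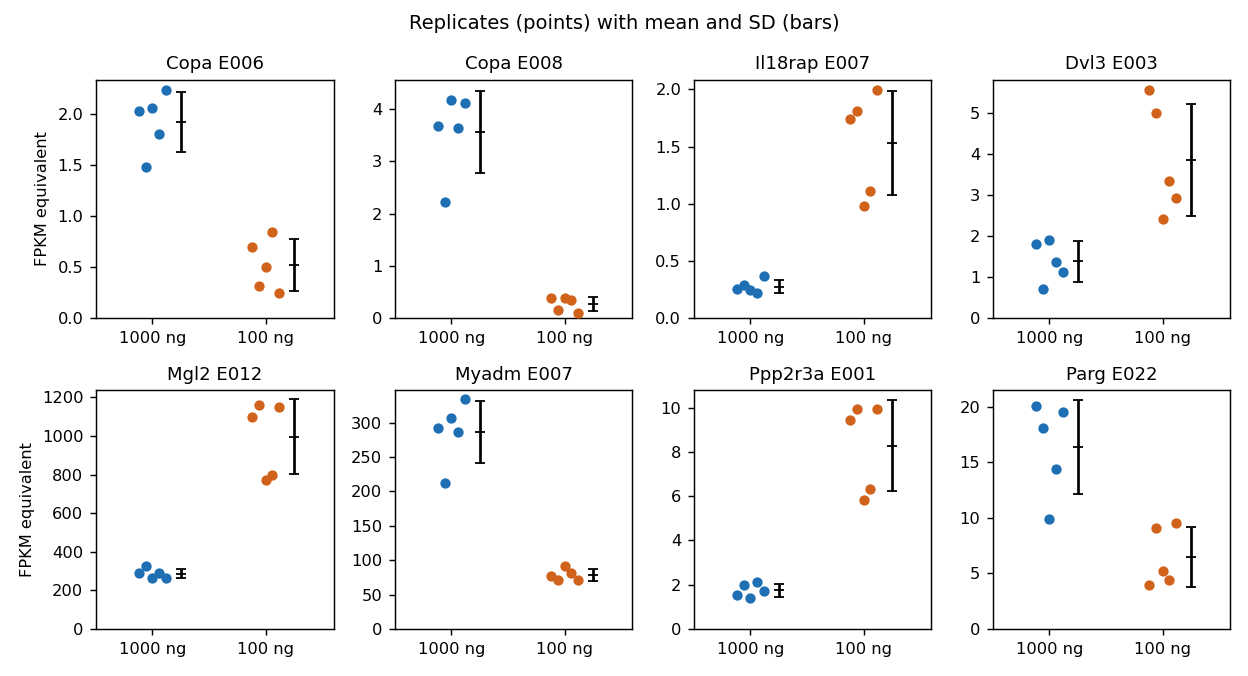
Level of 8 called bins in FPKM equivalents in the 5 replicates of each background (points), with the mean and SD beside them. The axes start at 0. In each of the 8 bins the replicates of the backgrounds do not overlap.

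Counting all placed bins gives a wider view of such pieces, not all of which have the marks of an intron. Of the 637 bins placed on the genome, 39 were noncoding pieces that touch a coding bin, and 38 of these were tested. Of the 39, 32 started with GT, 17 ended with AG and 34 lay in a transcript annotated as retaining an intron. Among them, 9 lay between coding bins and all 9 started with GT and ended with AG. Among the 38, 7 were called, 2 higher in the 1000 ng background against 5 in the 100 ng background. Over all bins 11.8% were called, 4.98% and 6.82% in these directions. Besides the bins of Copa, Il18rap and Dvl3 the 7 included Rcbtb2 E012 and Kcnn4 E004. Those of Copa, Il18rap and Kcnn4 are in models listed for NuGENv2 reads, in which 22% of bins were called.

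Rcbtb2, in the synthetic list with the endogenous background for the 100 ng input, had 3 called bins. E012, an intron piece, measured 1.30, 4.36, 0.918, 4.83 and 2.02 in the 100 ng background against 0.647, 0.194, 0.394, 0.375 and 0.408 in the 1000 ng background, a log2 fold change of -1.26 (SE 0.31). The call was lost when 1000 ng replicate 2, 3, 4 or 5 or 100 ng replicate 2 was left out, at limma adjusted p from 0.0526 to 0.0638. E006 measured 3.03 ± 0.34 in the 1000 ng background against 8.25 ± 4.07 in the 100 ng background. Its call was lost when any 1000 ng replicate or 100 ng replicate 2 or 4 was left out, at limma adjusted p from 0.0542 to 0.0718. In both bins 100 ng replicates 2 and 4 were the highest.

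Other called bins of models without NuGENv2 reads were few in each model. Trm1l, related to a tRNA methyltransferase, had 5, all higher in the 100 ng background and all with overlapping replicates. Hdh, the huntingtin gene in the spelling of the table, had 4 of 70 bins higher in the 1000 ng background, of which E034 measured 20.0 ± 2.49 against 12.1 ± 0.60 (log2 fold change 0.67, SE 0.10, limma adjusted p = 0.00194). Atg16l1, an autophagy protein, had E012 called alone, at 60.5 ± 39.5 against 4.50 ± 3.69. Its 100 ng replicate 5, at 10.6, was above 1000 ng replicate 1, at 9.82. Of the 4 models in no list, Parg, which removes poly(ADP-ribose), had E022 called, at 20.1, 18.1, 9.94, 14.4 and 19.5 against 3.97, 9.13, 5.21, 4.38 and 9.57 (log2 fold change 1.26, SE 0.27, limma adjusted p = 0.0165).

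Reads gained between tables gave a view of the added NuGENv2 reads that needs no scaling. In all 925 bins each of the 5 replicates of a background gained the same number of reads from the 20M to the 40M table and from the 40M to the 80M table. The 21 models listed for NuGENv2 reads all gained reads and no other model did. In the bins, the 40M to 80M step added 17586 reads to each 1000 ng replicate and 17742 to each 100 ng replicate, 3.73% and 4.78% of the mean reads in bins at 80M. Of the 322 bins of listed models, 212 gained reads in at least 1 background, and 70 of these were called. All 70 were higher in the background that gained more reads, 21 of the 65 bins that gained more in the 1000 ng background against 49 of the 120 that gained more in the 100 ng background. None of the 27 bins that gained equally was called. The gained reads are part of the 80M values that were tested, so this match of direction was largely fixed in advance. Reads gained from the 20M to the 80M table made up a median of 26.6% of the 80M reads in the called bins, from 2.83% to 93.8%. In the gained bins that were not called the median was 12.6%, from 0.0944% to 58.2%.

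**Figure D5:**
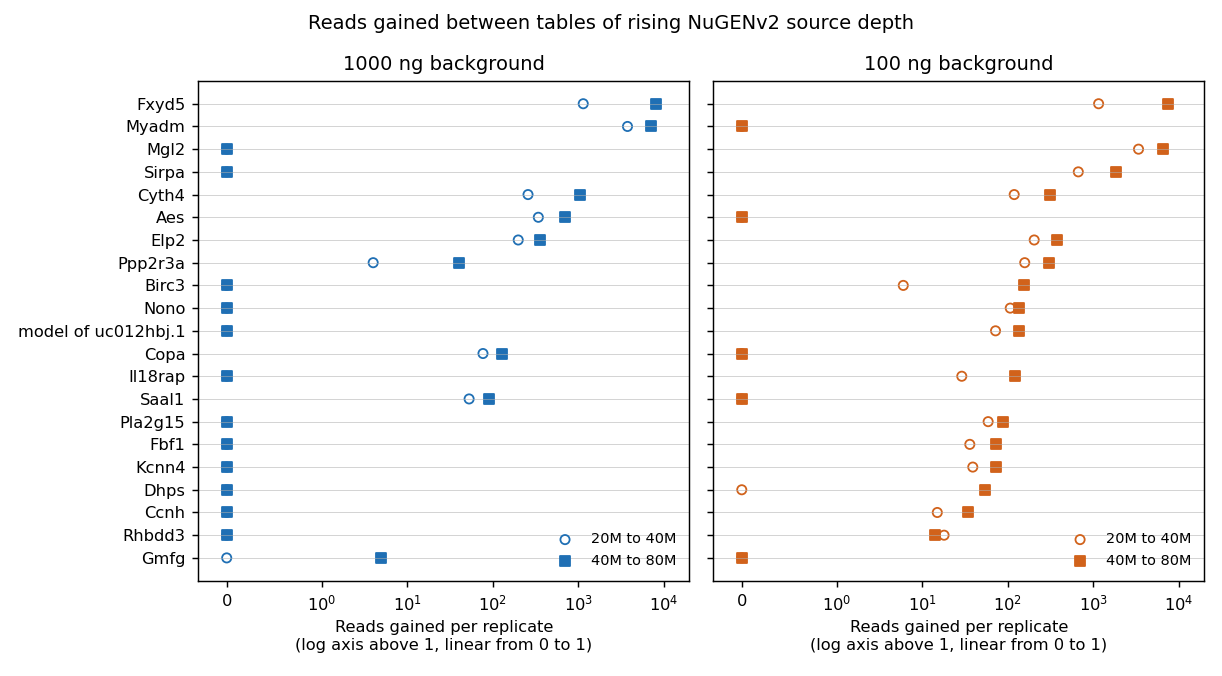
Reads gained per replicate in each of the 21 models listed for NuGENv2 reads, from the 20M to the 40M table (open circles) and from the 40M to the 80M table (filled squares), in the 1000 ng background (left) and the 100 ng background (right). The axis is logarithmic above 1 and linear from 0 to 1. Fxyd5 and Elp2 gained similar numbers in both backgrounds, Cyth4 and Ppp2r3a unequal numbers in both, and the other 17 models in 1 background only.

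Gained reads did not always follow the lists. Cyth4, an exchange factor for ARF GTPases, is listed for the 1000 ng background alone, yet gained 1060 reads there and 312 in the 100 ng background from 40M to 80M. Its coding bins E006, E007 and E008 measured 228 ± 6.86, 297 ± 11.003 and 274 ± 9.46 in the 1000 ng background against 163 ± 16.3, 211 ± 23.0 and 204 ± 16.4. With E004 they were the 4 called bins of the model, from 0.42 to 0.77, and the total did not pass (69.3 ± 1.74 against 65.3 ± 5.38). Fxyd5 gained 8070 reads in the 1000 ng background against 7543 in the 100 ng background, the largest gains of the 21 models in that step. Of its 13 bins E012 and E013 were called, both higher in the 100 ng background, at -0.44 and -0.41. Elp2, a subunit of the Elongator complex, gained 360 and 376 reads, and none of its 24 bins was called. Gmfg gained 5 reads and had no called bin.

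The counts of called features by known role are given beside those over all models, 24.1% of totals, 11.8% of bins and 39.7% of models by bin usage. The cell surface group (Sirpa, Mgl2, Il18rap, Myadm and Fxyd5) held 3 totals higher in the 100 ng background, 1 higher in the 1000 ng background, with 1 not called. Of its 58 bins 18 were higher in the 100 ng background against 3 in the 1000 ng background, and all 5 models passed on bin usage. All 5 are listed for NuGENv2 reads, and in the 21 models so listed 22% of bins were called. The median log2 fold change of its totals was -0.19, against -0.06 over all 58 models. In the group of apoptosis and ubiquitin regulators, Birc3 and Rhbdd3 were higher in the 100 ng background, and Casp9 and Bcl2l13 were not called. The group median was -0.30, and 8.51% of the bins of the group were called. Of the phospholipases, Pla2g15 was higher in the 100 ng background and Pla2g16 was not called. None of the 4 models in the group of Wnt pathway genes and chromatin repressors (Aes, Dvl3, Cbx7 and Sin3b) was called on its total. Of their 66 bins, 13 were higher in the 1000 ng background against 1 in the 100 ng background. Of the 13, 11 were those of Dvl3, as was the 1 opposite bin, and 2 were those of Aes, with none in Cbx7 or Sin3b. The actin and ARF group (Gmfg, Sh3pxd2b and Cyth4) had 4 of 43 bins higher in the 1000 ng background (9.3%), all in Cyth4, and no total called. Of the autophagy, cilium and motor group, Fbf1 and Evi5l were higher in the 100 ng background and Atg16l1, Bbs9 and kif18a were not called, with 6.25% of the bins of the group called. The RNA and translation group (Elp2, Trm1l and Gas5) had 5 of 66 bins called (7.58%), all those of Trm1l and higher in the 100 ng background. Of the PP2A pair, Ppp2r3a was called and Arpp19 was not. In the apoptosis, phospholipase and PP2A groups, the called totals were those of models listed for NuGENv2 reads (Birc3, Rhbdd3, Pla2g15 and Ppp2r3a). The models not called there (Casp9, Bcl2l13, Pla2g16 and Arpp19) are in the synthetic lists. Role and list cannot be told apart in these groups.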

How the data were processed

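Exon bin values were deposited for 12 samples, and the NuGENv2 table at 80M source reads was analysed here, with those at 20M and 40M for gained reads. STAR, Cuffdiff and mm9 are named, without versions, per the submitters' processing notes. The counting step itself is not described in them. The table held 1744 rows, of which 818 repeated another row, and 1 bin was not finite. The deposited values were a coverage signal, not scaled to library size: whole reads over bin length, and in the fifth 100 ng column also over 16.1. Multiplying back gave whole reads within 0.001 for 100% of values. As lengths and the divisor were inferred from the values, this checks little. The design had assumed FPKM.

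Reads per kilobase were divided by median-of-ratios size factors (873 bins), set to the level of the fifth 100 ng column. limma 3.58.1 in R 4.3.3 (trend and robust off) was run on log2(FPKM equivalent + 1), a scale that understates changes of low values, with a threshold of 0.05. Bins outside listed models needed a mean of at least 1. Bin usage was tested with diffSplice. The fits were tested on simulated data. Bins were placed on NCBIM37 with GENCODE vM1 by matching the order and lengths of bins of a model, where the deposited length was 1 less than the width of the annotated piece for 685 bins. Reads of gene pairs on opposite strands cannot be told apart, as the protocol is unstranded.

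Named models were all that passed, all with NuGENv2 reads and the 3 others of largest change. Named bins were the 20 of largest change without overlap and the extremes of models called both ways. One item that the rule names is not reported here. Other bins named were chosen after their values were seen. The models, gene groups and rules were chosen with earlier results of these data known. Alternatives covered scaling, pseudocount, filter, test, replicate block and leaving out each replicate.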

Additional observations from a re-analysis of the deposited data

Results flagged for a closer look

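In 3 of 98 groups of 5 replicates among the named models and bins, 1 replicate lay apart from the other 4 by more than a Dixon ratio of 0.71. Chance flags about 1 in 20 such groups. In Sirpa, 1000 ng replicate 2 measured 77.7 FPKM equivalents, against 69.1 for the nearest of the others. In Copa E008, 1000 ng replicate 2 measured 2.23, against 3.63 for the nearest. In Birc3 E001, 1000 ng replicate 4 measured 4.39, against 3.78 for the nearest. The calls of all 3 held without that replicate.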

How the results depend on the processing

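The main counts were 109 bins, 14 models and 23 models by bin usage. They changed most with the scaling. Without column scaling 46 bins, 4 models and 8 models by bin usage were called, with size factors from total reads 38, 6 and 11, and on the values as deposited 0, 2 and 5. At 0 bins, limma gave 96 with an unadjusted p under 0.05, and voom called 120 bins on rescaled reads. The values as deposited without the fifth 100 ng column, added after seeing the data, gave 10, 2 and 5. The exact permutation called 0 bins (217 at an unadjusted p under 0.05) and 12 models: its smallest p with 5 against 5 columns, 0.00794, would need about 147 bins at that value, and 115 reached it. The cause of the other changes was not tested. With the replicate number as a block, 63 bins, 11 models and 25 models by bin usage were called. The numbers did not pair the columns: same-numbered columns correlated from -0.37 to 0.08 in their deviations, and 0 of 5 correlated best with their own number. Leaving out each replicate gave 74 to 99 bins, 10 to 16 models and 19 to 24 models by bin usage. Every other alternative stayed within 1.5 times the main counts.

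On the values as deposited these log2 fold changes of totals turned positive: Mgl2 0.24, Sirpa 0.095, Fbf1 0.0044, Pla2g15 0.012, Birc3 0.019, Kcnn4 0.075, Il18rap 0.064, Rhbdd3 0.016, Dhps 0.088, Elp2 0.25, Fxyd5 0.72, Nono 0.38 and Ccnh 0.068. Without the fifth 100 ng column these were Il18rap 0.0062, Dhps 0.014, Elp2 0.094, Fxyd5 0.20, Nono 0.13 and Ccnh 0.022. Without column scaling they were Kcnn4 0.041, Il18rap 0.14, Dhps 0.19, Elp2 0.30, Fxyd5 0.31, Nono 0.33 and Ccnh 0.28, and after quantile normalization Fxyd5 0.073 and Ccnh 0.18. No named bin changed sign.

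Of the 14 called totals, 7 remained called after quantile normalization, 12 with size factors from models without NuGENv2 reads and 14 with a pseudocount of 0.1 or 10. Of the 23 named bins, 21, 23 and, at a pseudocount of 10, 19 did so. Bins under about 10 reads, such as Ppp2r3a E015 and E017, or Fbf1 E026 and E029 in the 1000 ng background, are measured with the least precision.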

Other observations

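The reads gained from the 40M to the 80M table were 3.00 times those gained from the 20M to the 40M table in the 1000 ng background and 2.92 times in the 100 ng background. Fxyd5, singled out after its values were seen, gained 7.04 and 6.53 times as many in the later step. Without Fxyd5 the ratios were 2.02 and 2.07. Birc3 gained 6 reads in the first step and 155 in the second. Rhbdd3 went the other way, with 18 and then 14 reads.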
